A study of Mus musculus with 3 samples.

Results

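The genes described here are 50 genes of mitosis, of the kinetochore and of the mitotic spindle, taken by name from a list of known members of this machinery, out of 19752 genes that could be named on the array. They were measured in skin resident macrophages, isolated by FACS as CD11b+Gr1−F4/80+ cells from the back skin of CD1 mice, which the methods give as female. There were 3 groups, which differed only in age: postnatal day 42 (P42), day 55 (P55) and day 69 (P69), which the study calls early, mid and late telogen, the resting phase of the hair follicle (its text gives another day for early telogen). Each group was 1 array of RNA pooled from littermates and amplified as a whole transcriptome, so that no difference between ages could be set against a spread between animals, and no test or p-value is given.

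Mitosis is started by the kinase CDK1 with its cyclins. The chromosomes are then compacted by condensin, attached through their kinetochores to the spindle, held back by the spindle checkpoint until every attachment is made, and separated once the anaphase promoting complex has marked securin and cyclin B for destruction. The transcripts of most of these genes are periodic: the DREAM complex keeps them low in resting cells, and FOXM1 and B-MYB raise them as a cell approaches division. Resident macrophages of adult tissues are largely resting, and can divide in place.

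Many of these promoters share a pair of short elements. The cell cycle genes homology region, of which TTTGAA is the common form, is bound by the MuvB core of DREAM, and the CCAAT box by NF-Y. RefSeq promoters (GRCm38.p6, 250 bases before to 50 after the start of transcription) were at hand for 41 of the 50 genes, and both strands were searched (matches of the motifs may share a letter). TTTGAA lay in a promoter of 29 of the 41 genes (70.7%), against 20.2% of all 27025 genes with a promoter. Between 60 bases before and 50 after the start it lay in 26 of them (63.4%), against 6.36% of all. A CCAAT box was found for 31 of them (75.6%), against 41.1%, and both together, with TTTGAA near the start, for 24 (58.5%), against 2.68%. Counted by promoter, TTTGAA was in 32 of 46, against 17.9% of all 32851, and CCAAT in 36 of 46, against 37.4%. These shares describe letters in a window and were not tested.

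The 100 bases before the start are printed for some of the genes with both motifs there, in capitals on either strand (TTCAAA and ATTGG being the reverse). Others, such as Prc1, Bub3 and Top2a, also have both motifs there and are not printed. The first 4 belong to genes at least 2-fold higher on the P55 array than on the P42 array, Kif11 belongs to a gene whose P42 signal was too dim to measure, and Espl1 to a gene that stayed within 2-fold. The intervals, all on GRCm38.p6, are chr10:69352913-69353012 (minus strand) for Cdk1, chr4:118437344-118437443 (minus) for Cdc20, chr2:164769829-164769928 (plus) for Ube2c, chr7:127042421-127042520 (minus) for Kif22, chr19:37376282-37376381 (plus) for Kif11 and chr15:102296193-102296292 (plus) for Espl1.
Cdk1: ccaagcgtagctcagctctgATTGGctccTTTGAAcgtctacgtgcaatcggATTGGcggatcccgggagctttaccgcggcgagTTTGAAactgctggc
Cdc20: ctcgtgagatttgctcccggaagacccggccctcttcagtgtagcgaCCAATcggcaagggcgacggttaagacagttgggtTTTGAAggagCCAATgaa
Ube2c: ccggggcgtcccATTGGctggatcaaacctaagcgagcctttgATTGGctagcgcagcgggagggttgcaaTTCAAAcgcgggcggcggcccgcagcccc
Kif22: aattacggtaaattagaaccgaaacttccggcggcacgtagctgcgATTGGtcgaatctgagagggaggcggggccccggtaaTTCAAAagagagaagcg
Kif11: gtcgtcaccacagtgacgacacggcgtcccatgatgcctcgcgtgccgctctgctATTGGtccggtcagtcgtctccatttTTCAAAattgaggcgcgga
Espl1: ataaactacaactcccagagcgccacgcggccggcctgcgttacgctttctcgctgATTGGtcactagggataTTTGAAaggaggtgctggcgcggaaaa

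The TTTGAA match began 15 bases before the start in Cdk1, 18 in Cdc20, 29 in Ube2c, 17 in Kif22, 19 in Kif11 and 27 in Espl1. In the same order, a CCAAT box began 48, 53, 57, 54, 45 and 44 bases before the start of transcription. Genes higher on the later arrays were found with and without the motif. Of the 26 genes with TTTGAA near a start, 22 had a change at P55 and 12 were at least 2-fold higher, and 24 had one at P69 and 10 were. Of the 15 without it, 14 had a change on each later array, and 7 and 6 were at least 2-fold higher. Among all genes with a change, 29.1% were so at P55 and 22.2% at P69. Birc5 and Pttg1, both higher on the later arrays, have no TTTGAA within their windows.

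Before the results, the arrays themselves need a remark. The authors' own table of log2 values holds columns for P55 and P69 that match the scanner files deposited for P69 and P55: 99.9% and 99.8% of 36380 probes lay within 0.05 (log2) of the median offset when the files were exchanged, and 3.08% and 3.07% as labeled. Values are given here by the scanner file of each sample, and whatever is said of P55 against P69 turns around under the other assignment. What both later arrays share against P42 does not depend on it. All arrays lay on 1 slide, no spot was saturated, and 71.4%, 59.6% and 68.7% of 55681 probes were well above background at P42, P55 and P69. Levels are log2 of the processed intensity minus the 75th percentile of the array. Error could be taken from probes printed in 10 or more spots and well above background. Their median SD lay between 0.11 and 0.13 (log2), which makes the SD of a difference between arrays 0.16 to 0.17. Dim signals can vary more than this: the spots of Bub1 had an SD of 0.46 at P42, 0.09 at P55 and 0.28 at P69.

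The sorted cells carried the markers of their type. All 13 macrophage markers on the array were well above background on every array, with a level of Csf1r, the receptor of the macrophage growth factor, of 6.16, 6.87 and 6.32 at P42, P55 and P69. Most of the 13 were lower than at P42, 9 at P55 and 10 at P69. At least 2-fold lower were 3 and 4 of them, against 16.9% and 20.7% of all genes. Markers of other cell types gave signal as well, and whether it came from such cells was not tested. All 16 keratinocyte markers were also well above background on every array. Of these, 13 were at least 2-fold higher at P69 and 14 at P55 than at P42, against 22.2% and 29.1% of all genes.

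Of the 50 mitosis genes, 36 were well above background at P42, 41 at P55 and 47 at P69. This was so on all 3 arrays for 33 genes. The P42 array alone missed 8 genes: cyclin A2, Aurkb, Bub1, Bub1b, Kif2c, Kif11, Kif20a and Anln. Cdc25c, Ect2 and Top2a were well above background at P69 only. Ndc80, Nuf2 and Ncapg were so at P42 and P69 but not at P55. The dimmest probe well above background stood at −4.44 at P42, −4.04 at P55 and −5.01 at P69, so these counts do not share 1 limit. Ncapg was well above background at P69 with a level of −4.87, but not at P55 with −4.76. The checkpoint kinase Ttk, the kinetochore protein Cenpf and the motor Kif18a were dim on every array, and no change is given for them. Over the whole array the share of named genes well above background was 77.7%, 70.5% and 77.0%, highest at P42, where the mitosis genes had their lowest count.

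**Figure D1:**
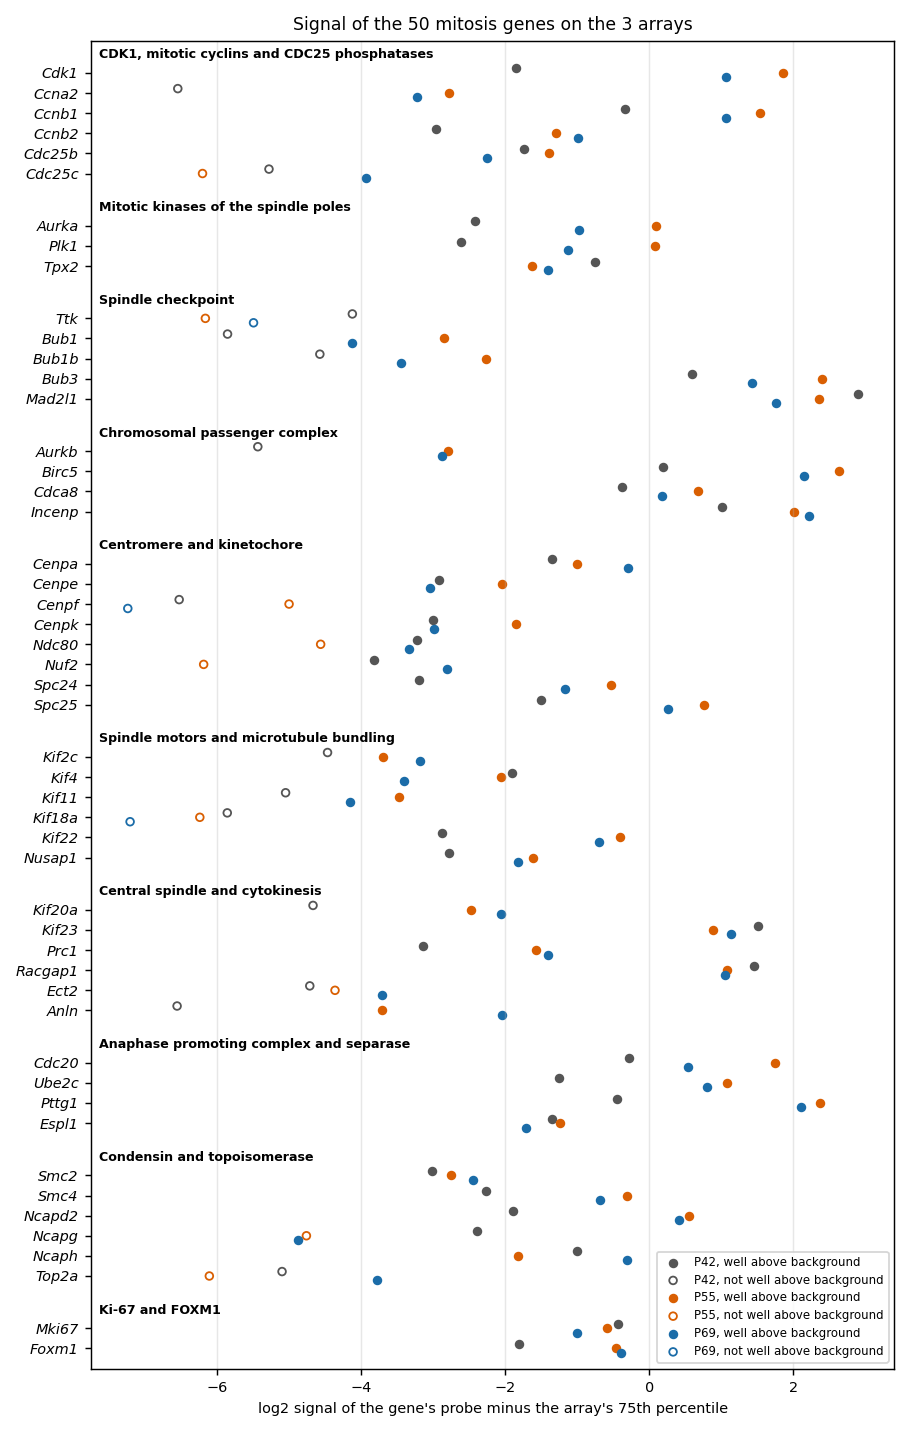
Signal of each mitosis gene (rows, by role) on the P42, P55 and P69 arrays, as log2 of the processed signal of its probe minus the 75th percentile of the array; filled points are well above background and open points are not. Open points are mostly those of P42, and the P42 point lies left of both others for Cdk1, Plk1, Birc5, Pttg1 and Ncapd2; levels of different genes come from different probes and are not comparable.

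From P42 to P55, 44 mitosis genes had a change, 34 of them higher and 10 lower, with a median of 1.26 (log2) against 0.22 over 15843 genes. At least 2-fold higher were 26 of the 44, against 29.1% of all genes, and 1, Ncapg, was at least 2-fold lower, against 16.9%. From P42 to P69, 47 had a change, 36 higher and 11 lower, with a median of 0.99 against 0.15 over 16164 genes. At least 2-fold higher were 23 of the 47, against 22.2% of all genes, and 3 (Mad2l1, Kif4 and Ncapg) were at least 2-fold lower, against 20.7%, with another probe of Mad2l1 higher by 1.06. Both comparisons use the same P42 array, so the second is not a repeat of the first.

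A gene dim at P42 had to be higher to be given a change, and these counts include such genes as lower bounds (8 of the 34 higher at P55 and 11 of the 36 at P69). Among genes well above background on both arrays, the median was 1.34 over 33 genes for P55, against 0.38 over all such genes, and 0.98 over 36 genes for P69, against 0.20. The plain difference over all 50 genes, with no filter on dim signals, had a median of 1.26 for P55 and 1.08 for P69, against 0.21 and −0.08 over all named genes. Scaling moved the median of all genes itself, from −0.16 to 0.86 for P55 and from −0.05 to 1.32 for P69. Relative to it, the mitosis genes stood higher by 1.03 at P55 and by 0.84 at P69. Without dim genes these values were 0.96 and 0.79, with no filter 1.04 and 1.16, and over all alternatives 0.48 to 1.55 and 0.64 to 1.35.

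With 1 probe per gene, the 10-fold limit of the study's methods called Cdk1 alone, and only at P55 (1 gene of 44, against 1.12% of all genes). No probe used for a mitosis gene was 10-fold higher at P69 (0.668% of all genes), although the bound of 3.44 (log2) on another probe of Cdk1 lies past that limit, and none was 10-fold lower at P55 (0.316%) or P69 (0.464%).

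At least 2-fold higher on both later arrays were 19 of the 44 genes with a change to both, against 16.6% of 15602 named genes, which share the P42 array in the same way: Cdk1, Ccna2, Ccnb1, Ccnb2, Aurka, Aurkb, Plk1, Birc5, Incenp, Spc24, Spc25, Kif20a, Kif22, Prc1, Ube2c, Pttg1, Smc4, Ncapd2 and Foxm1. Of these, 16 were measured on all 3 arrays, and Ccna2, Aurkb and Kif20a are bounds. With normexp background correction 10 of the 19 remained, without Aurka, Aurkb, Ccna2, Foxm1, Incenp, Kif20a, Plk1, Prc1 and Smc4. Another 7 reached 2-fold at P55 only (Cdc20, Bub1, Bub1b, Bub3, Cdca8, Cenpk and Nusap1). At P69 only, 4 did so (Cenpa, Nuf2, Kif2c and Anln). The shares of all genes that reached 2-fold at P55 only or at P69 only were not counted. These counts therefore cannot be read as more than the rate over the whole array. For Bub1, Bub1b, Kif2c and Anln the other array gave a bound under 2-fold, which does not show a smaller difference. Lower on both later arrays were 8 genes (Mad2l1, Ndc80, Kif4, Kif23, Tpx2, Racgap1, Mki67 and Ncapg), of which Ncapg and Tpx2 stayed so with median scaling and Ncapg alone without scaling. Of all genes, 7007 of 15843 were lower at P55 and 7315 of 16164 at P69, and the share lower on both was not counted. Over the scalings tried, the direction changed for 8 genes at P55 (Cdc25b, Mad2l1, Cenpa, Kif4, Racgap1, Mki67, Espl1 and Smc2) and for 10 at P69 (Cdc25b, Mad2l1, Cenpe, Cenpk, Ndc80, Kif23, Tpx2, Racgap1, Mki67 and Espl1).

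**Figure D2:**
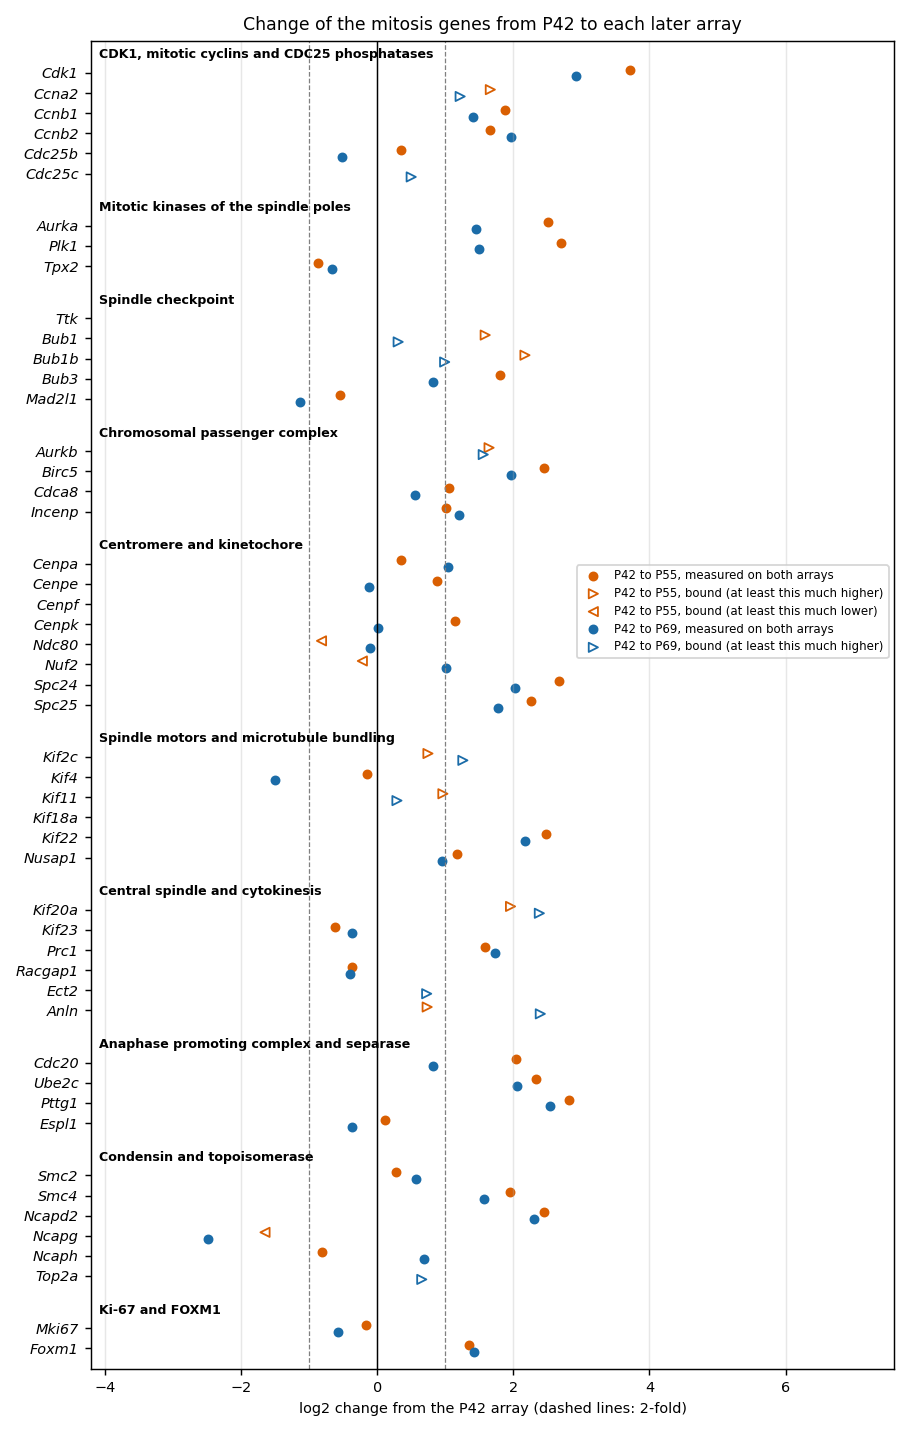
Log2 change from the P42 array to the P55 (orange) and P69 (blue) arrays for each mitosis gene, by role; circles are measured on both arrays, triangles are bounds, and dashed lines mark 2-fold. Points lie right of the upper dashed line for 26 genes at P55 and 23 at P69, with Cdk1 at 3.72 and 2.92 farthest right, while Mki67, Tpx2, Kif23 and Racgap1 lie left of 0 on both, each turning positive on at least 1 later array under another scaling.

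Cdk1 had the widest measured increase of the 50 genes on both later arrays. The level of Cdk1, the kinase that drives it, was −1.86 at P42, 1.86 at P55 and 1.07 at P69. Its signal was thus 13.2-fold higher at P55 and 7.59-fold at P69, and a second probe, too dim at P42, gave bounds of 4.32 and 3.44 (log2), while the third was dim at both P42 and P55. Cyclin B1 (Ccnb1), the partner that activates CDK1 at mitosis, had levels of −0.34, 1.53 and 1.07, and its changes of 1.87 and 1.41 came with 0.55 to 1.59 on its other probes. Cyclin B2 (Ccnb2), its relative at the Golgi, had levels of −2.96, −1.30 and −0.99. Cyclin A2 (Ccna2), which acts from S phase on, was not well above background at P42 and reached −2.78 and −3.22 later, at least 3.17-fold and 2.33-fold higher. All these cyclins stood higher on both later arrays than at P42. Among phosphatases that remove the inhibitory phosphates from CDK1, Cdc25b was at −1.74, −1.39 and −2.26, within 2-fold throughout. Cdc25c was measurable at P69 only, at least 1.42-fold above P42, and no change could be given for P55. The related Cdc25a, from the list of other periodic genes, was at −0.56, 0.27 and 0.93.

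The kinases of the spindle poles were both higher. Aurka, which matures the centrosomes, had levels of −2.42, 0.10 and −0.97, a change of 2.52 at P55 and 1.45 at P69. Plk1, which acts at centrosomes, kinetochores and in cytokinesis, had levels of −2.62, 0.08 and −1.12, a change of 2.69 and 1.49. In both the P55 level was the highest and the P42 level the lowest. Tpx2, which activates Aurora A on the spindle, was lower instead, at −0.75, −1.62 and −1.41, and its other probe was at background on every array.

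Among genes of the spindle checkpoint, the kinase Bub1 was the one member measured in many spots. Its mean level over spots was −5.92 ± 0.46 at P42 (SD, n = 10 spots, none well above background), −2.86 ± 0.09 at P55 (n = 9) and −4.16 ± 0.28 at P69 (n = 9). The spots of each array did not overlap those of the others, which shows the technical error only. Against the dimmest measurable signal of the P42 array this is at least 3.01-fold higher at P55 and 1.24-fold at P69. Bub1b, the checkpoint protein BubR1, was at least 4.51-fold and 1.99-fold higher, and Bub3, the adaptor that brings both to the kinetochore, was at 0.60, 2.40 and 1.42. Mad2l1, the inhibitor of the anaphase promoting complex, cannot be given a direction: its brightest probe read 2.90, 2.36 and 1.76, while another read −1.67, −0.02 and −0.61.

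The chromosomal passenger complex corrects wrong attachments and stayed together in direction, with each of its 4 genes higher on both later arrays. Birc5, the subunit survivin, had levels of 0.18, 2.64 and 2.15, and the changes of its 3 probes ran from 2.12 to 3.00 at P55 and from 1.45 to 2.41 at P69. Incenp, the scaffold, was at 1.01, 2.02 and 2.21, and its other probe differed from these changes by less than 0.05. Cdca8, the subunit borealin, was at −0.37, 0.68 and 0.18, 2.08-fold higher at P55 and 1.47-fold at P69. The kinase of the complex, Aurkb, was dim at P42 and at least 3.13-fold and 2.95-fold higher later.

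Kinetochore genes differed within a single complex. Spc24 and Spc25, which anchor the NDC80 complex to the centromere, had levels of −3.20, −0.53 and −1.17 and of −1.51, 0.76 and 0.27, which made them 6.40-fold and 4.81-fold higher at P55 and 4.09-fold and 3.41-fold at P69. The arm of the same complex that binds microtubules read differently. Ndc80 was at −3.22 and −3.34 at P42 and P69, a difference within 2 SD of spot error, and at least 1.76-fold lower at P55. Nuf2 was at −3.82 at P42, dim at P55 and at −2.81 at P69, 2.02-fold higher than at P42, and its other probe was dim on every array. Cenpa, the histone variant that marks centromeres, was at −1.34, −1.00 and −0.30, and the motor Cenpe at −2.93, −2.04 and −3.04. The probes of Cenpk disagreed, with 1.14 and −2.23 at P55.

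Among spindle motors, Kif22, which pushes chromosome arms from the poles, had levels of −2.88, −0.40 and −0.70, 5.57-fold and 4.53-fold higher than at P42. Kif2c, which takes kinetochore microtubules apart, was dim at P42 and at least 1.68-fold and 2.39-fold higher. Its other probe read −3.76 at P55 but was dim at P42 and P69, so that it gave no change from P42 to P69. The bipolar motor Kif11 was also dim at P42 and at least 1.95-fold and 1.22-fold higher. The bundling protein Nusap1 was at −2.78, −1.61 and −1.83. The chromokinesin Kif4 went the other way, at −1.91, −2.06 and −3.41, 2.83-fold lower at P69.

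Genes of the central spindle and cytokinesis were divided. Prc1, which bundles the antiparallel microtubules of the midzone, was at −3.15, −1.57 and −1.41, 2.99-fold and 3.33-fold higher. Kif20a, a motor that carries the passenger complex there, was dim at P42 and at least 3.89-fold and 5.22-fold higher. Anln, the anillin of the contractile ring, was at least 1.66-fold and 5.27-fold higher, with levels of −3.71 at P55 and −2.04 at P69. The centralspindlin genes, by contrast, read slightly lower: Kif23 was at 1.51, 0.89 and 1.14, and Racgap1 at 1.45, 1.08 and 1.06. A second probe of Racgap1 gave changes of 1.56 and 1.00, so its direction is unsettled. Ect2, the activator of RhoA that centralspindlin recruits, was measurable at P69 only.

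At anaphase, Pttg1, Ube2c and Cdc20 were higher on both later arrays. Pttg1, the securin that holds separase, had levels of −0.44, 2.38 and 2.11, 7.05-fold and 5.84-fold higher than at P42, and its other probe was dim on every array. Ube2c, the ubiquitin-conjugating enzyme of the complex, was at −1.25, 1.09 and 0.80, and its changes of 2.34 and 2.05 compare with 1.08 and 0.57 on its other probe. Cdc20, its activator, was at −0.28, 1.75 and 0.54, 4.09-fold higher at P55 and 1.77-fold at P69. The protease separase itself (Espl1) stood at −1.35, −1.24 and −1.72, within 2-fold throughout. Fzr1, the activator that follows Cdc20 and belongs to another list, was at 1.09, 1.91 and 0.94.

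Condensin also did not move as a unit. Ncapd2, a subunit of condensin I, was at −1.89, 0.56 and 0.41, 5.46-fold and 4.92-fold higher, and the ATPase Smc4 at −2.26, −0.31 and −0.69, 3.87-fold and 2.98-fold higher. Its partner Smc2 was at −3.02, −2.75 and −2.45, within 2-fold. Ncaph was at −1.01, −1.82 and −0.31, lower at P55 and higher at P69. Ncapg had the largest decrease of the 50 genes, from −2.39 at P42 to a dim signal at P55, at least 3.13-fold lower, and to −4.87 at P69, 5.58-fold lower. Its P69 level was close to that of the dimmest measurable probe of that array, −5.01. Top2a, which untangles sister chromatids, was measurable at P69 only, at least 1.57-fold above P42.

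The usual label of cycling cells did not follow Cdk1. The level of Mki67, which codes for the proliferation antigen Ki-67, was −0.43 at P42, −0.59 at P55 and −1.00 at P69, and its second probe read −1.17, −1.32 and −1.50. Both probes thus had their highest level at P42, and the difference to P55 was within 2 SD of spot error. Its direction turned positive under median scaling for P55 and without scaling for both later arrays. Foxm1, the transcription factor, was at −1.80, −0.46 and −0.39, 2.54-fold and 2.67-fold higher.

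**Figure D3:**
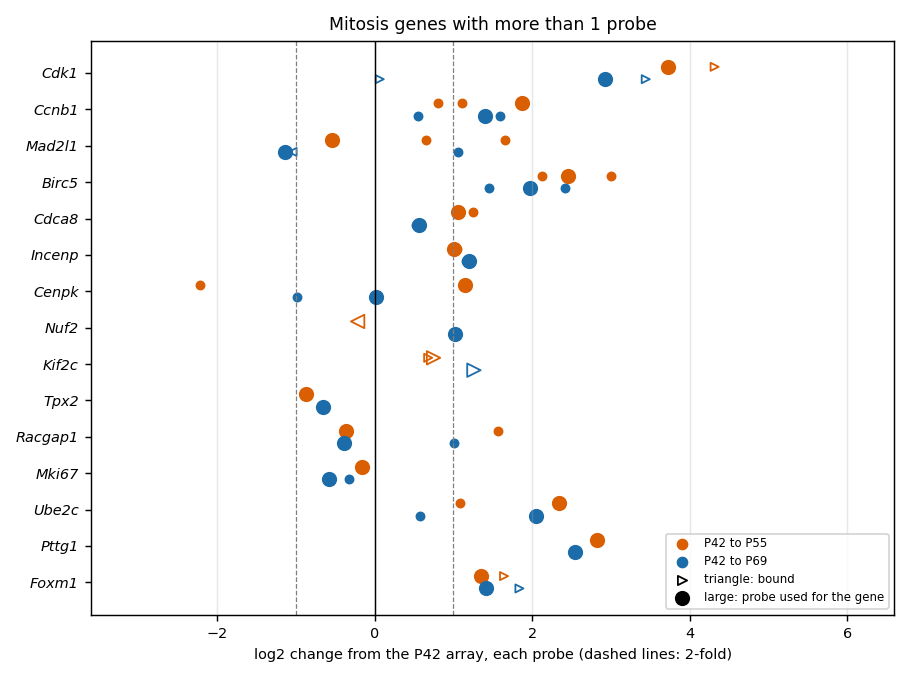
Log2 change from P42 to P55 (orange) and P69 (blue) for each probe of the 15 mitosis genes with more than 1 probe; large symbols mark the probe used for the gene, triangles are bounds, and dashed lines mark 2-fold. The probes of Mad2l1, Cenpk and Racgap1 fall on both sides of 0, and those of Birc5, Incenp, Ccnb1 and Mki67 each fall on 1 side.

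The 50 genes had 69 probes in all. Where a gene had several probes with a change, they pointed the same way for 9 of 12 genes at P55 and 8 of 11 at P69. Mad2l1, Cenpk and Racgap1 disagreed in both cases. From P55 to P69, probes pointed the same way for 9 of 12 genes, and those of Ccnb1, Cenpk and Kif2c disagreed. For Mad2l1 and Racgap1, the brightest probe gave the lower direction and another gave changes above 1.

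The later arrays differed less from each other than from P42. From P55 to P69, 46 mitosis genes had a change, 17 higher and 29 lower, with a median of −0.29 against −0.15 over 14846 genes. At least 2-fold lower at P69 were 8 genes (Aurka, Plk1, Bub1, Bub1b, Cenpe, Cenpk, Kif4 and Cdc20), against 11.3% of all genes, and 3 were at least 2-fold higher (Nuf2, Anln and Ncaph), against 7.85%. Of the 41 genes measured on both, 14 differed by less than 2 SD of spot error, among them Ccnb2, Aurkb, Incenp, Kif22, Prc1, Ube2c, Pttg1, Ncapd2 and Foxm1. Under the array assignment of the authors' table, all these directions are exchanged. Without scaling the median was 0.60, above 0.

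The wider cell cycle was set beside these genes through other lists, whose medians are over the genes with a change. Of 55 further periodic genes of G2 and mitosis on the array, 46 had a change at P69, 20 at least 2-fold higher and 8 lower, with a median of 0.70, and 45 at P55, 18 higher and 9 lower, with a median of 0.83. Of all genes with a change, 22.2% were at least 2-fold higher and 20.7% lower at P69, and 29.1% and 16.9% at P55. Pkmyt1, a kinase that inhibits CDK1, had levels of −0.76, 2.92 and 1.90, and Cdca3 of −2.86, 0.27 and −0.63. Cenpu, a kinetochore gene, was at −3.11, −1.24 and −1.18. Depdc1a was lower, at −1.93, −3.70 and −4.08. In either direction, 31 of these genes of the same phase were higher and 15 lower at P69, where 8849 of all genes were higher and 7315 lower.

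The DNA replication genes, which act a phase earlier, had medians close to those of the mitosis genes. Of 30, 27 had a change at P55, 21 at least 2-fold higher and 0 lower (29.1% and 16.9% of all genes), with a median of 1.51. At P69, 26 had a change, 11 at least 2-fold higher and 0 lower (22.2% and 20.7% of all genes), with a median of 0.91. Pola1, Rrm2, Pcna and Pole, of DNA polymerases, nucleotide supply and the sliding clamp, were higher by 1.75 to 2.99 at P55 and by 1.65 to 2.84 at P69. Only 1 replication gene was lower at P55 and 2 at P69, where 10 and 11 mitosis genes were. Of all genes, 7007 of 15843 were lower at P55 and 7315 of 16164 at P69. The difference between the lists was not tested.

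Other lists held genes that act on the machinery or upstream of it. The 22 genes of the anaphase promoting complex, of cohesin and of their regulators had medians of 0.69 at P55 and 0.52 at P69. Anapc13, Anapc4 and the cohesin subunit Stag1 were higher by 1.02 to 1.59, and the cohesin regulator Pds5b was at 0.34, −3.77 and −2.01. The 12 genes listed for DREAM and MuvB, among them Rb1, which is not a subunit, had medians of 0.79 and 0.93. E2f4, which binds DNA for the complex, was higher by 1.92 and 1.43. The other genes named by the same rule were Rb1, Rbbp4 and Lin54, higher by 0.41 to 1.10. G1 cyclins and their kinases, listed with the transcription factors E2f1, E2f2 and E2f3, had medians of 0.39 and 0.19. Of this list, 1 gene was at least 2-fold higher at P55 (E2f2, 1.78) and none at P69, against 29.1% and 22.2% of all genes. Cdk2, Cdk4 and Ccnd2 were higher by 0.37 to 0.96. Inhibitors of the cyclin-dependent kinases had medians of 0.28 and 0.54. Cdkn1a, the inhibitor p21, was at 4.72, 4.33 and 3.89, and Cdkn1b, the inhibitor p27, at 2.45, 3.01 and 3.37. Cdkn2d was higher by 1.04 and 0.52.

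Markers of some other cell types were also higher on the later arrays, and those of others were lower. The summed linear level of the 50 genes, in units of the 75th percentile, was 28.0 at P42, 57.6 at P55 and 44.5 at P69. That of the keratinocyte markers was 282, 426 and 296, with medians of 3.27 and 3.15 for the changes to P55 and P69. Most of this sum came from 1 probe, that of Trp63, at 262, 263 and 163. The other 15 markers, summed without it after its values were seen, gave 20.0, 163 and 133. The 5 markers of Langerhans and dendritic cells, which include Epcam of the keratinocyte list, summed to 20.8, 146 and 90.0, with medians of 2.73 and 2.13. Cd207 alone gave 13.7, 108 and 59.8 of this, and the other 4 gave 7.14, 37.7 and 30.2. Of the 5, 3 were higher and 2 (Flt3 and Xcr1) lower on both later arrays. The 7 T cell markers summed to 3.99, 11.8 and 7.82, with medians of 1.42 and 1.01. The macrophage markers summed to 1018, 939 and 606, with medians of −0.44 and −0.56. Fibroblast markers had medians of −1.00 and −0.80, endothelial markers of −0.98 and −0.02, mast cell markers of −0.56 and 0.14, neutrophil markers of 0.66 and 0.65, and melanocyte markers of 1.43 and 0.73. Any part of other cells in the mitosis signal was not tested, and in a pooled sample more cells of a type and more RNA per cell cannot be told apart.

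**Figure D4:**
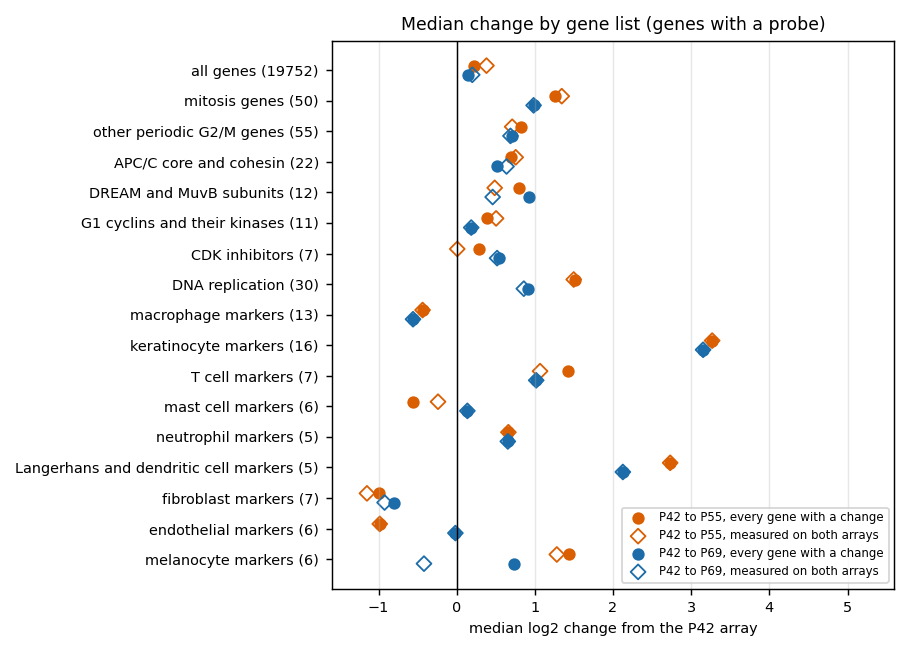
Median log2 change from P42 to P55 (orange) and P69 (blue) for all named genes, the mitosis genes, other cell cycle lists and lists of cell type markers, with the number of genes on the array; circles include bounds, and open diamonds hold genes measured on both arrays. The mitosis genes lie at 1.26 and 0.99, near the DNA replication genes at 1.51 and 0.91, above all genes at 0.22 and 0.15, and below the keratinocyte markers at 3.27 and 3.15.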

How the data were processed

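RNA of sorted macrophages was hybridized to 1-color Agilent arrays (Cy3), 1 per age. The authors quantified the scans with Feature Extraction 10.7.3.1 and deposited spot intensities, linear and background-corrected but not scaled across arrays. A log2 table of 36409 probes was deposited too, whose normalization is not given in the sources used here. It was used only as an alternative, and it holds the probe used for 43 of the 50 genes. Its columns have medians of 0.36, 0.00 and 0.00 for P42, P55 and P69.

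Control spots and spots marked as outliers were left out, repeated spots were averaged, and the log2 processed intensity was set relative to the array's own 75th percentile. A probe counted as well above background when at least 0.5 of its spots did. Where 1 array of a pair was dim, the change is a bound: the bright signal was set against the dim probe's signal or, if that was lower, against the dimmest probe well above background there. No change is given where this bound went below 0 or both arrays were dim. The probe with the highest mean level stands for a gene, and other probes are named where they disagree. Probes were named through their RefSeq transcript (GRCm38.p6), 26056 of 55681. A gene counts as called past 2-fold. From each other list up to 4 genes are named: those well above background on all arrays with the largest smaller change from P42 to both later arrays in 1 direction. The alternatives were other scalings, normexp background correction (limma 3.58.1 in R 4.3.3, offset 50, on median signals), other filters, the median over probes, the authors' table, the 10-fold limit and the exchange of the P55 and P69 arrays. The steps were tested on simulated data. Python 3.11.15, numpy 2.4.6, pandas 2.3.3 and matplotlib 3.10.9 were used. The members and lists were chosen with earlier results of these data known. With 1 array per age, the number of arrays limits the precision.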

Additional observations from a re-analysis of the deposited data

How the results depend on the processing

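With 1 array per age, the spread between animals is unknown, and an alternative that leaves out a replicate could not be made. No paired analysis was possible because each age has 1 sample. The median change from P42 stayed positive under every alternative tried, and that from P55 to P69 did not keep its sign. Relative to the median of all genes, which itself was 0.72 without scaling and 0.35 in the authors' table, the median from P55 to P69 lay between −0.23 and −0.03 under every setting but the exchange of the arrays, where it was 0.14. The cause of the shifts was not tested.

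For P42 to P69, the median of 0.99 became 0.79 with the 75th percentile over probes well above background on all arrays, 1.58 with quantile normalization, 1.51 with median scaling, 2.15 without scaling, 0.67 with normexp, 1.58 in the authors' table and 1.26 with the arrays exchanged. The 23 genes at least 2-fold higher became 38 without scaling, 12 with normexp and 0 at 10-fold. In the main setting 22.2% of all genes were so and 20.7% were at least 2-fold lower. These shares are not given for other scalings and normexp. The median of all genes was itself 1.32 without scaling and 0.03 with normexp. The 3 lower became 1 with median scaling, without scaling and with the arrays exchanged, 5 without a filter, with the laxer background call and in the authors' table, and 0 at 10-fold.

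For P42 to P55, the median of 1.26 became 0.88, 1.87, 1.90, 1.61 and 0.60 with the same scalings and normexp, and 0.99 with the arrays exchanged. The 26 genes at least 2-fold higher became 15 with normexp and 1 at 10-fold. In the main setting 29.1% of all genes were so and 16.9% were at least 2-fold lower. With normexp the median of all genes was 0.12. The 1 lower became 4 with the 75th percentile over probes well above background on all arrays, 0 with quantile normalization, normexp, both arrays above background or 10-fold, 5 without a filter, with the laxer background call and in the authors' table, and 3 with the arrays exchanged.

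For P55 to P69, the median of −0.29 became −0.13 with the 75th percentile over probes well above background on all arrays, and turned to 0.60 without scaling, 0.30 in the authors' table and 0.29 with the arrays exchanged. The 3 genes at least 2-fold higher became 16 without scaling, 1 with normexp, 6 without a filter and with the laxer background call, 9 in the authors' table, 8 with the arrays exchanged and 0 at 10-fold. In the main setting 7.85% of all genes were so and 11.3% were at least 2-fold lower. The median of all genes was 0.72 without scaling, −0.19 with normexp and 0.35 in the authors' table. The 8 lower became 5 with the 75th percentile over probes well above background, 0 without scaling, 3 with normexp, 3 with the arrays exchanged and 0 at 10-fold.

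Of the 19 genes at least 2-fold higher on both later arrays, 19 remained with median scaling or without scaling, 18 with quantile normalization, 17 with the 75th percentile over probes well above background on all arrays, and 10 with normexp, which lost Aurka, Aurkb, Ccna2, Foxm1, Incenp, Kif20a, Plk1, Prc1 and Smc4. Of the 8 genes lower on both, median scaling left Ncapg and Tpx2, and no scaling left Ncapg alone. Scaling changed the direction of 8 genes for P42 to P55, 10 for P42 to P69 and 20 for P55 to P69.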
